A study of Homo sapiens with 12 samples.

Results

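The genes described here are 45 components of autophagy, the lysosome and its proton pump, measured in SZ95 sebocytes, an immortalised human line from the sebaceous gland. They were taken by symbol from a list of well-known genes of these systems, drawn up with earlier results of these data known, as entries of the deposited array table annotated with exactly 1 of the 45 symbols. Where a gene had several such entries, the probe set with the highest mean signal was used. All 45 of 45 symbols were found, among 18417 genes tested and 33297 table entries. The 12 whole-transcript arrays formed 4 groups of 3 replicates (n = 3 throughout): scramble siRNA untreated, scramble siRNA with UV-PAPC, OLR1 siRNA untreated, and OLR1 siRNA with UV-PAPC. All cells were kept in Sebomed medium and transfected with Lipofectamine 2000, so every group carries a lipofection and an siRNA. Treated cells received 25 µg/ml of UV-PAPC 24 h later. UV-PAPC is a phosphatidylcholine with an arachidonic acid chain that was oxidised by ultraviolet light, and OLR1 encodes LOX-1, a receptor for oxidised low-density lipoprotein. A vehicle, unoxidised PAPC or untransfected cells are named for no group, and the length of the exposure is not stated. The groups come from 1 cell line, and nothing states that replicates were separate cultures, so the spread behind every p-value may be technical.

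Autophagy encloses cytoplasm in a double membrane and delivers it to the lysosome. The ULK1 kinase and the BECN1 lipid kinase complexes start the membrane, a ubiquitin-like cascade (ATG7, ATG3, ATG5, ATG12, ATG16L1) attaches LC3 and GABARAP proteins to it, and receptors such as OPTN and NBR1 bind the cargo to these tags. In the lysosome, cathepsins cut proteins and glycosidases trim sugars at an acid pH that the V-ATPase maintains: its V1 part hydrolyses ATP in the cytosol and its V0 part moves protons across the membrane. TFEB and TFE3 are transcription factors known to drive many of these genes. Sebocytes fill with lipid and end in holocrine death, a differentiation in which lysosomal enzymes are known to take part.

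The array medians lay between 5.73 and 5.83 on the log2 scale. OLR1 itself read 5.35 to 6.19 in the 6 scramble arrays and 4.33 to 4.66 in the 6 OLR1 siRNA arrays, without overlap. All 8 listed markers of sebocytes and simple epithelium, KRT7 and PPARG among them, had a median rank above the middle of the array. Of 8 leukocyte markers, 7 lay below the middle of every array, from percentile 2.21 (PTPRC) to 41.2 (CSF1R), and CD68, itself a lysosomal membrane glycoprotein, lay at percentiles 92.7 to 95.9. Of the 45 genes, 43 had a mean signal above the median gene (the exceptions were TFEB and CTSO), so shares of called genes are given below for all genes and for the 9208 genes above that median. A log2 fold change is the difference of group means in a limma fit to all 12 arrays, with its standard error (SE), and "rose" or "fell" means a Benjamini-Hochberg adjusted p under 0.05 over the 18417 genes. Signals were scaled to a common distribution on each array, so a change is relative to the other transcripts, and fewer cells cannot be told apart from less RNA per cell.

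UV-PAPC raised a small number of these genes, led by the ATG8 family gene GABARAPL1 and the lysosomal glycosidase gene GLA under either siRNA. Averaged over the siRNAs, GABARAPL1 rose 2.07-fold and GLA 1.77-fold, while MAP1LC3B, ATG12, CTSL, ATP6V1C1 and ATP6V1E1 rose by 0.21 to 0.35 on the log2 scale and ATG16L1 fell by 0.26. That makes 7 rises and 1 fall among 45 genes (15.6% and 2.22%), where 5.95% of all genes rose and 8.03% fell, and 8.89% and 13.3% of the high-signal genes. With scramble siRNA 2 genes rose and 2 fell (4.44% each, against 2.67% and 4.64% of all genes and 4.02% and 7.86% of the high-signal genes; 4 and 2 after a repeated quantile normalization). With OLR1 siRNA 5 rose and 0 fell (11.1%, against 3.46% and 3.25% of all genes and 5.54% and 5.23% of the high-signal genes); limma gave 1 gene, ATG16L1, a negative change at an unadjusted p under 0.05 there. The median change of the 45 genes was 0.000641 with scramble siRNA and 0.077 with OLR1 siRNA, beside -0.00196 and -0.0134 over all genes and -0.0298 and -0.00187 over the high-signal genes. Arrays of the groups compared did not overlap under both siRNAs for 5 higher genes and 1 lower gene, against 4.24% and 6.56% of all genes. Of the sebocyte markers, the lipid droplet gene PLIN2 rose (0.62 in the average), and PPARG (-0.41) and MUC1 (-0.31) fell; their part in the changes described here was not tested.

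**Figure D1:**
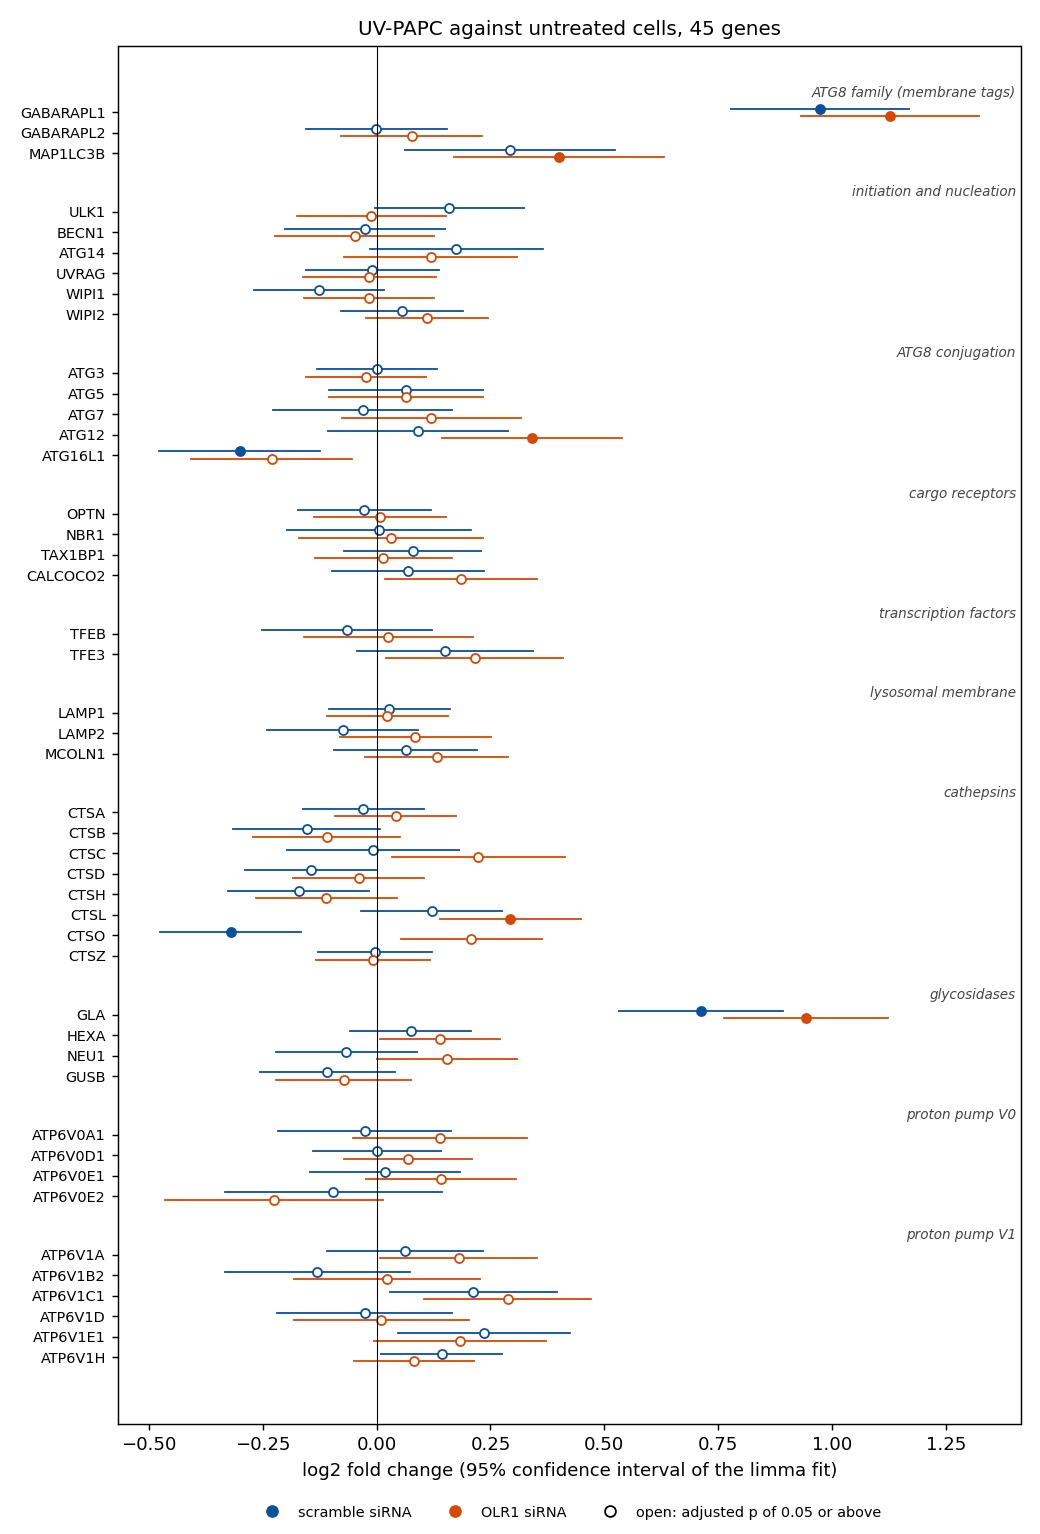
Log2 fold change of each of the 45 genes for UV-PAPC against untreated cells (x axis) with scramble siRNA (blue) or OLR1 siRNA (orange), grouped by role; lines are 95% confidence intervals of the limma fit and filled points passed an adjusted p of 0.05. GABARAPL1 and GLA stand to the right under both siRNAs, and most other intervals include 0.

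Among the ATG8 family, whose members are conjugated to the growing membrane and recruit cargo receptors, GABARAPL1 had the largest response. The log2 signal of GABARAPL1 was 7.29, 6.95 and 7.20 in untreated cells with scramble siRNA and 8.17, 8.14 and 8.06 with UV-PAPC, and 7.28, 7.23 and 6.99 and 8.36, 8.24 and 8.29 in the same order with OLR1 siRNA. The 3 treated arrays lay above the 3 untreated ones under either siRNA, with a gap wider than any spread inside a group. It rose 1.96-fold with scramble siRNA (log2 fold change 0.97, SE 0.09, limma adjusted p = 6.16e-06) and 2.19-fold with OLR1 siRNA (1.13, SE 0.09, adjusted p = 1.16e-06), which placed it at rank 27 and 28 of the rises of all 18417 genes. MAP1LC3B read 6.84, 6.65 and 6.87 (scramble, untreated), 7.27, 7.08 and 6.89 (scramble, UV-PAPC), 6.64, 6.40 and 6.74 (OLR1 siRNA, untreated) and 7.11, 7.03 and 6.84 (OLR1 siRNA, UV-PAPC). MAP1LC3B, which encodes the autophagosome marker LC3B, did not overlap between treated and untreated arrays of either siRNA; it rose with OLR1 siRNA (0.40, SE 0.11, adjusted p = 0.0353) and in the average (0.35, adjusted p = 0.00528), and with scramble siRNA its change of 0.29 did not pass (adjusted p = 0.132). The call with OLR1 siRNA was lost without array OLR1 siRNA untreated 1 or 2 or OLR1 siRNA UV-PAPC 1 or 2 (adjusted p = 0.0728 to 0.169). With array weights (0.36, adjusted p = 0.0504) and in a fit of the 6 arrays alone (adjusted p = 0.0502) it did not pass either. A separate table entry names both MAP1LC3B and its near-identical copy MAP1LC3B2, so their signals may be shared. GABARAPL2, a close relative of GABARAPL1, stayed between 8.88 and 9.14 in all 12 arrays, with an average change of 0.04 (95% interval -0.07 to 0.15).

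In the conjugation cascade the 2 changes went opposite ways. ATG12 read 6.96, 7.07 and 6.88 (scramble, untreated), 7.15, 6.99 and 7.05 (scramble, UV-PAPC), 7.02, 6.74 and 6.76 (OLR1 siRNA, untreated) and 7.24, 7.00 and 7.30 (OLR1 siRNA, UV-PAPC). ATG12, the ubiquitin-like protein joined to ATG5, rose with OLR1 siRNA (0.34, SE 0.09, adjusted p = 0.0365) and in the average (0.22, adjusted p = 0.0376), although the highest untreated array overlapped the lowest treated one under either siRNA. The call with OLR1 siRNA was lost without array OLR1 siRNA untreated 2 or 3 or OLR1 siRNA UV-PAPC 1 or 3 (adjusted p = 0.126 to 0.15). In a fit of the 6 arrays alone (adjusted p = 0.0896) it did not pass either. The average call was lost without any 1 of 8 of the 12 arrays (adjusted p = 0.0606 to 0.0976). ATG16L1 read 7.78, 7.83 and 7.74 (scramble, untreated), 7.48, 7.61 and 7.35 (scramble, UV-PAPC), 7.85, 7.82 and 7.73 (OLR1 siRNA, untreated) and 7.62, 7.40 and 7.68 (OLR1 siRNA, UV-PAPC). ATG16L1, which positions the ATG12-ATG5 enzyme on the membrane, was lower in treated cells without overlap under either siRNA. It fell by 0.30 with scramble siRNA (SE 0.08, adjusted p = 0.038) and by 0.26 in the average (adjusted p = 0.00537), with -0.23 (adjusted p = 0.128) for OLR1 siRNA. The scramble call was lost without array scramble untreated 1, 2 or 3 or scramble UV-PAPC 1 or 3 (adjusted p = 0.0716 to 0.159). With the replicate number as a block (adjusted p = 0.0546) and with 4 arrays left out together (adjusted p = 0.0964) it did not pass either. The average call was kept in all 20 alternatives. The E1-like ATG7 (0.04), the E2-like ATG3 (-0.01) and ATG5 (0.06) did not pass.

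Of the 45 genes, none of the steps before conjugation or of cargo binding passed in any UV-PAPC comparison. Genes of these steps outside the list, SQSTM1 and ULK2 among them, did pass and are described with the further genes below. ULK1, the initiating kinase, was at 0.16 with scramble and -0.01 with OLR1 siRNA. ATG14, which directs the BECN1 complex to autophagosome formation, was at 0.18 and 0.12, and BECN1 itself at -0.03 and -0.05. UVRAG, of the alternative BECN1 complex, and the lipid-binding WIPI1 and WIPI2 had average changes of -0.01, -0.07 and 0.08. The cargo receptors OPTN, NBR1, TAX1BP1 and CALCOCO2 ranged from -0.01 to 0.13 in the average. Of the transcription factors, TFEB was at -0.02 (95% interval -0.15 to 0.11) and TFE3 at 0.18 (adjusted p = 0.0748); their activity is known to be set largely by entry into the nucleus, which transcript levels do not measure.

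GLA, the alpha-galactosidase that removes terminal galactose from glycolipids and is deficient in Fabry disease, had the largest response of the lysosomal genes. The log2 signal of GLA was 7.31, 7.22 and 7.21 in untreated cells with scramble siRNA and 8.06, 7.99 and 7.83 with UV-PAPC, and 7.15, 7.38 and 7.19 and 8.32, 8.08 and 8.15 in the same order with OLR1 siRNA. Treated and untreated arrays did not overlap under either siRNA. GLA rose 1.64-fold with scramble siRNA (0.71, SE 0.08, adjusted p = 6.17e-05) and 1.92-fold with OLR1 siRNA (0.94, SE 0.08, adjusted p = 3.39e-06), at rank 49 and 38 of the rises of all genes. The other glycosidases did not follow: HEXA, of ganglioside breakdown, was at 0.08 and 0.14, the sialidase NEU1 at -0.07 and 0.16, and the beta-glucuronidase GUSB at -0.11 and -0.07, none past the threshold. NEU1 was read by 3 probe sets, 2 of them with identical values, and GUSB has several near-identical pseudogenes whose table entries carry many symbols.

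The cathepsins did not move as a family: CTSL rose, CTSO fell with scramble siRNA, and the remaining 6 did not pass. CTSL read 10.02, 9.89 and 9.91 (scramble, untreated), 10.05, 10.03 and 10.09 (scramble, UV-PAPC), 9.81, 9.79 and 9.67 (OLR1 siRNA, untreated) and 10.08, 9.92 and 10.14 (OLR1 siRNA, UV-PAPC). CTSL, a cysteine endopeptidase, was higher in treated cells without overlap under either siRNA, and rose with OLR1 siRNA (0.29, SE 0.07, adjusted p = 0.0219) and in the average (0.21, adjusted p = 0.0118). With scramble siRNA its change was 0.12 (adjusted p = 0.411). The call with OLR1 siRNA was lost without array OLR1 siRNA untreated 3 or OLR1 siRNA UV-PAPC 1 or 3 (adjusted p = 0.0814 to 0.101). In a fit of the 6 arrays alone (adjusted p = 0.0638) it did not pass either. The aspartic protease CTSD (-0.09), the cysteine proteases CTSB (-0.13) and CTSH (-0.14), the carboxypeptidases CTSA (0.01) and CTSZ (-0.01) and the dipeptidyl peptidase CTSC (0.11) did not pass in the average, though the unadjusted 95% intervals of CTSH (-0.25 to -0.03) and CTSB (-0.25 to -0.02) lie below 0. CTSO, a little-studied cysteine protease, is described with the difference of responses below. In the lysosomal membrane LAMP1, LAMP2 and the calcium channel MCOLN1 were at 0.03, 0.01 and 0.10 in the average, none past the threshold.

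Of the proton pump, 2 of 6 V1 subunits rose in the average effect (background as above) and 0 of 4 V0 subunits passed; limma gave no V0 subunit an unadjusted p under 0.05 for UV-PAPC. ATP6V1C1 read 9.36, 9.29 and 9.21 (scramble, untreated), 9.52, 9.61 and 9.36 (scramble, UV-PAPC), 9.38, 9.50 and 9.31 (OLR1 siRNA, untreated) and 9.83, 9.67 and 9.56 (OLR1 siRNA, UV-PAPC). ATP6V1C1, which bridges the 2 parts of the pump, was at 0.21 with scramble siRNA (adjusted p = 0.173) and 0.29 with OLR1 siRNA (adjusted p = 0.0579), and it rose in the average (0.25, SE 0.06, adjusted p = 0.0101). Its treated arrays stood apart with OLR1 siRNA, and with scramble siRNA the lowest treated and the highest untreated array met. ATP6V1E1 read 8.93, 8.90 and 8.99 (scramble, untreated), 9.25, 9.20 and 9.09 (scramble, UV-PAPC), 9.22, 9.30 and 8.99 (OLR1 siRNA, untreated) and 9.52, 9.29 and 9.25 (OLR1 siRNA, UV-PAPC). The stalk subunit ATP6V1E1 rose by 0.21 in the average (SE 0.06, adjusted p = 0.0356). This call was lost without any 1 of 6 of the 12 arrays (adjusted p = 0.0693 to 0.0886). Its groups were apart with scramble siRNA and overlapped with OLR1 siRNA. ATP6V1H (0.11) was higher in treated cells without overlap under either siRNA but did not pass, and the catalytic ATP6V1A (0.12), ATP6V1B2 (-0.05) and ATP6V1D (-0.01) did not pass either. With 4 arrays left out together, 1 per group, the average calls of MAP1LC3B, ATG12, CTSL, ATP6V1C1 and ATP6V1E1 did not pass (adjusted p = 0.0528 to 0.237). These 4 arrays and their choice are given with the processing below. The V0 subunits ranged from -0.16 for ATP6V0E2 to 0.08 for ATP6V0E1.

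**Figure D2:**
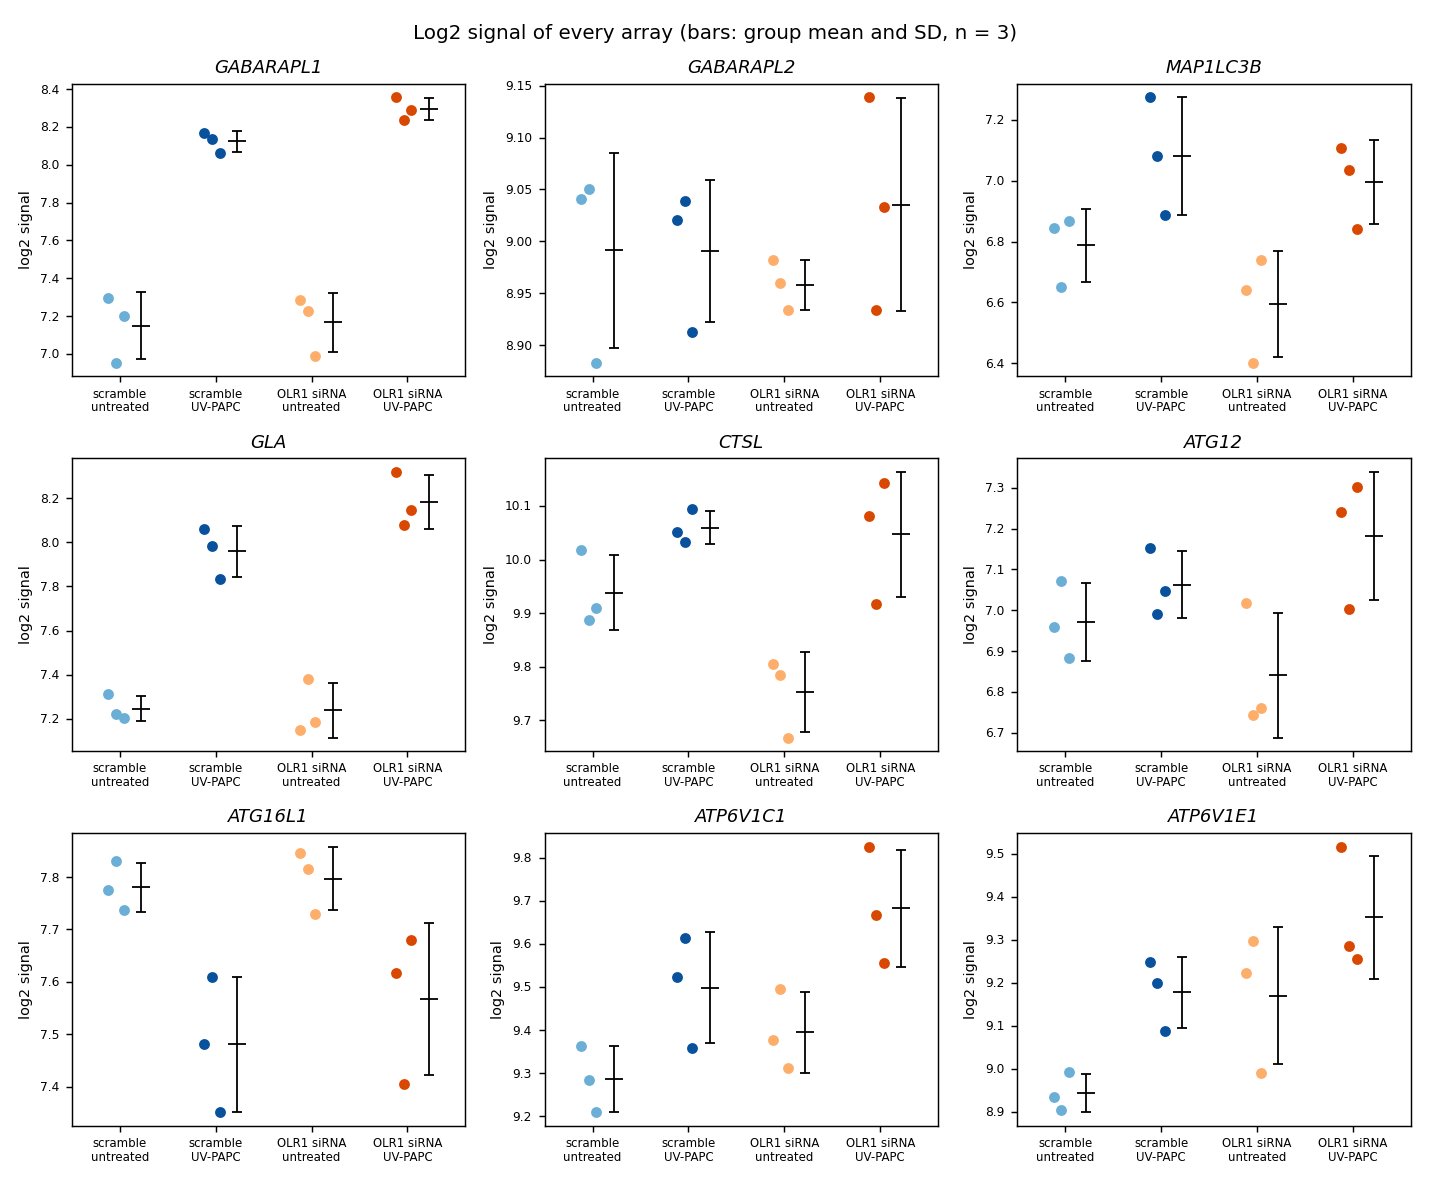
Log2 signal (y axis, a separate range in each panel) of 9 genes in every array, by group (x axis); points are single arrays and bars the group mean and SD, n = 3. In GABARAPL1 and GLA the treated arrays sit well above the untreated ones under both siRNAs, GABARAPL2 shows overlapping groups, and ATG16L1 is lower in treated cells.

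The promoters of GABARAPL1, MAP1LC3B, CTSL and GLA, some of the genes that rose, are shown for the short motifs they hold. Each sequence runs from 200 bases before to 30 bases after the RefSeq start (GRCh38.p14), 5′ to 3′ on the gene's strand, with capitals marking any match on either strand to the letters searched: CACGTG (E-box), the same letters with GT before and AC after them (the full CLEAR motif known for TFEB), TGACNNNGC (core of the antioxidant response element), GAANNTTC, TTCNNGAA and GAANNTTC followed by NNGAA (heat shock pairs and triplet), TGACGTCA (CRE) and TGATGNAA (known for ATF4). CACGTG lies within the CLEAR motif and both heat shock pairs lie within the triplet. GABARAPL1 is at chr12:10212677-10212906 (+), MAP1LC3B at chr16:87392136-87392365 (+), CTSL at chr9:87725919-87726148 (+) and GLA at chrX:101407896-101408125 (-).
GABARAPL1: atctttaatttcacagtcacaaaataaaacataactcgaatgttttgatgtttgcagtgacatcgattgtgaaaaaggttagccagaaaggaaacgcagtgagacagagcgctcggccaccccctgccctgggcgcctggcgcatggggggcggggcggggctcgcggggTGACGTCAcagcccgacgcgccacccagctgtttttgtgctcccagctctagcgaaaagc
MAP1LC3B: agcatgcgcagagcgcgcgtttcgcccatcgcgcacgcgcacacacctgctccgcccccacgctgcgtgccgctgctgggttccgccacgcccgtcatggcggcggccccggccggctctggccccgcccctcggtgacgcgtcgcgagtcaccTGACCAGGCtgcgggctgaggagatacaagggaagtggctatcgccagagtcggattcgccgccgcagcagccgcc
CTSL: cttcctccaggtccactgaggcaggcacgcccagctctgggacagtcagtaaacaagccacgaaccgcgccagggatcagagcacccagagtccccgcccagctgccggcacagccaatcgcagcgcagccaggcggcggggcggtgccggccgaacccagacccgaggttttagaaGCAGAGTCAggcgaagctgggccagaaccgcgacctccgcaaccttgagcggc
GLA: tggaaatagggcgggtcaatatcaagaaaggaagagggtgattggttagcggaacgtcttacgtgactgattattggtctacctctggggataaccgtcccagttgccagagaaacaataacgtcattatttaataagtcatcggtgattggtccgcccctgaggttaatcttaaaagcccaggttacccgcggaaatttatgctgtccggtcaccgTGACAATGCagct
GABARAPL1 held 1 match, a CRE that begins 30 bases before the start. MAP1LC3B, CTSL and GLA each held 1 antioxidant response core, beginning 46 and 23 bases before the start and at base 18 after it. Over 27305 gene promoters of 300 bases (250 before to 50 after the start), the CRE letters occurred in 1.98% and the antioxidant response core in 13.6%, and 11 of the 35 genes of the list with a promoter in the table held the latter. None of the 4 promoters held CACGTG or a heat shock match, which says only that these letters are not in this window. ATG12 and ATP6V1E1, which also rose, held none of the letters searched in 300 bases, and no promoter was found for ATP6V1C1. The antioxidant response core was also held by CALCOCO2, LAMP1, CTSA, CTSC, CTSD, CTSZ, ATP6V0A1 and ATP6V0D1. These genes did not pass in any UV-PAPC comparison, and a link of the letters to the response was not tested.

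With OLR1 siRNA the V0 subunit gene ATP6V0E2 and the lysosomal membrane gene LAMP2 fell in both treatments, and they had the largest changes of the list in the average effect. With UV-PAPC the rise of CTSO (0.68) was larger than the fall of LAMP2 (-0.44). Averaged over both treatments ATP6V0E2 fell 2.54-fold and LAMP2 1.43-fold, the receptor OPTN, the channel MCOLN1 and the cathepsin CTSZ fell by 0.14 to 0.21 on the log2 scale, and BECN1, ATG5, ATG7, CTSH, CTSO, GUSB, ATP6V0E1, ATP6V1B2 and ATP6V1E1 rose by 0.20 to 0.41. These 9 rises and 5 falls (20% and 11.1%) stand beside 12.9% and 10.2% of all genes and 22.6% and 13% of the high-signal genes. The share that passed was thus close to that of the high-signal genes. With the arrays centred on their medians 13 rose and 4 fell, and after a repeated quantile normalization 8 rose and 7 fell. In untreated cells 2 rose and 2 fell (4.44% each, against 5.29% and 4.42% of all genes and 9.13% and 7% of the high-signal genes; 2 and 4 after the repeated quantile normalization). With UV-PAPC 8 rose and 2 fell (17.8% and 4.44%, against 7.94% and 4.56% of all genes and 14.4% and 5.77% of the high-signal genes; 4 and 4 after it). Arrays did not overlap in both treatments for 8 higher and 5 lower genes, against 9.27% and 5.80% of all genes. The median over the 45 genes was 0.0173 in untreated cells and 0.0946 with UV-PAPC, against -0.00142 and -0.0125 over all genes and 0.0117 and 0.0455 over the high-signal genes.

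**Figure D3:**
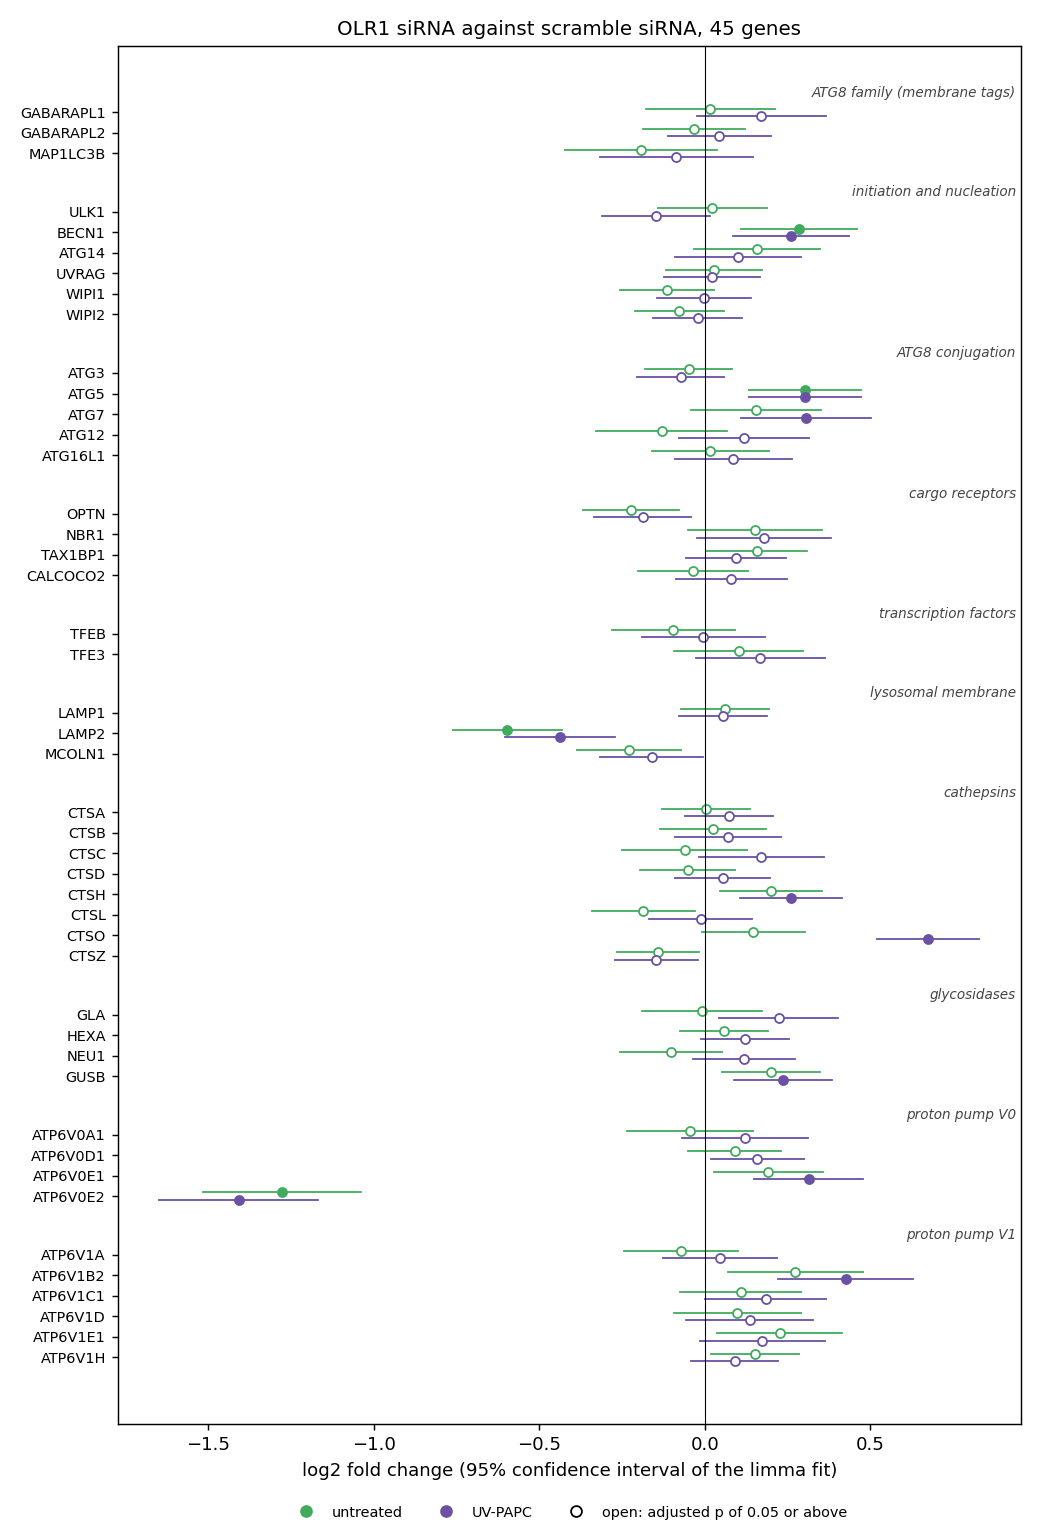
Log2 fold change of each of the 45 genes for OLR1 siRNA against scramble siRNA (x axis) in untreated cells (green) or with UV-PAPC (violet), grouped by role; lines are 95% confidence intervals of the limma fit and filled points passed an adjusted p of 0.05. ATP6V0E2 and LAMP2 stand to the left in both treatments and CTSO to the right with UV-PAPC.

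ATP6V0E2 encodes 1 of the 2 alternative small e subunits of the membrane part of the pump, the other being ATP6V0E1. The log2 signal of ATP6V0E2 was 8.30, 8.22 and 8.30 in untreated cells with scramble siRNA and 8.13, 8.39 and 8.03 with UV-PAPC, and 6.95, 6.86 and 7.18 and 6.63, 6.66 and 7.03 in the same order with OLR1 siRNA. The OLR1 siRNA arrays lay far below the scramble arrays in both treatments, with a gap wider than the spread inside any group. ATP6V0E2 fell 2.42-fold in untreated cells (-1.28, SE 0.11, adjusted p = 3.06e-06) and 2.66-fold with UV-PAPC (-1.41, SE 0.11, adjusted p = 2.23e-06). In the average effect it ranked 2 among the falls of all genes (-1.34, 95% interval -1.51 to -1.17), next to OLR1, the target of the siRNA, at rank 3 (-1.30, 95% interval -1.57 to -1.03). No group is named with another OLR1 siRNA or with OLR1 restored. Loss of OLR1 therefore cannot be told apart from other effects of its siRNA, for this gene or any other change with OLR1 siRNA. ATP6V0E1 read 10.49, 10.45 and 10.24 (scramble, untreated), 10.45, 10.41 and 10.37 (scramble, UV-PAPC), 10.63, 10.60 and 10.53 (OLR1 siRNA, untreated) and 10.84, 10.64 and 10.70 (OLR1 siRNA, UV-PAPC). The paralog ATP6V0E1 was higher with OLR1 siRNA, without overlap in either treatment, and rose with UV-PAPC (0.31, SE 0.08, adjusted p = 0.0145) and in the average (0.25, adjusted p = 0.00324), with 0.19 (adjusted p = 0.141) in untreated cells. The call with UV-PAPC was lost without array scramble UV-PAPC 3 or OLR1 siRNA UV-PAPC 1 (adjusted p = 0.0547 to 0.0777). After repeated quantile normalization (0.21, adjusted p = 0.0694) it did not pass either. The other V0 genes, ATP6V0A1 (0.04) and ATP6V0D1 (0.13, adjusted p = 0.0659), did not pass, although ATP6V0D1 was higher without overlap in both treatments.

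Of the V1 subunits, 2 of 6 rose in the average (33.3%), where 12.9% of all genes and 22.6% of the high-signal genes rose. A positive value was found for 5 of 6, where 46.6% of all genes and 56.9% of the high-signal genes were positive. ATP6V1B2 read 9.01, 8.83 and 8.84 (scramble, untreated), 8.88, 8.86 and 8.55 (scramble, UV-PAPC), 9.22, 9.23 and 9.06 (OLR1 siRNA, untreated) and 9.32, 9.07 and 9.18 (OLR1 siRNA, UV-PAPC). ATP6V1B2, the B subunit of the ATP-hydrolysing ring, was higher without overlap in both treatments and rose by 0.35 in the average (SE 0.07, adjusted p = 0.00147) and by 0.43 with UV-PAPC (adjusted p = 0.00909). ATP6V1E1 rose in the average (0.20, adjusted p = 0.0307). This call was lost without any 1 of 6 of the 12 arrays (adjusted p = 0.0532 to 0.0829). After repeated quantile normalization (0.14, adjusted p = 0.0994) it did not pass either. ATP6V1C1 (0.15), ATP6V1D (0.12), ATP6V1H (0.12) and ATP6V1A (-0.01) did not pass.

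LAMP2, a heavily glycosylated membrane protein whose A isoform is the receptor of chaperone-mediated autophagy, was lower with OLR1 siRNA in both treatments. The log2 signal of LAMP2 was 8.61, 8.52 and 8.49 in untreated cells with scramble siRNA and 8.53, 8.55 and 8.32 with UV-PAPC, and 7.92, 7.93 and 7.98 and 8.05, 7.91 and 8.13 in the same order with OLR1 siRNA. Scramble and OLR1 siRNA arrays did not overlap in either treatment. LAMP2 fell 1.51-fold in untreated cells (-0.60, SE 0.08, adjusted p = 0.000134) and 1.35-fold with UV-PAPC (-0.44, SE 0.08, adjusted p = 0.002). The array reads all isoforms of LAMP2 as 1 value here. LAMP1 ranged from 10.13 to 10.31 over the 12 arrays and had an average change of 0.06 (95% interval -0.04 to 0.15). MCOLN1 read 7.79, 7.71 and 7.95 (scramble, untreated), 7.93, 7.94 and 7.77 (scramble, UV-PAPC), 7.61, 7.59 and 7.57 (OLR1 siRNA, untreated) and 7.77, 7.67 and 7.72 (OLR1 siRNA, UV-PAPC). MCOLN1, the calcium channel that links lysosomes to TFEB, was lower with OLR1 siRNA, without overlap in either treatment, and fell by 0.19 in the average (SE 0.05, adjusted p = 0.0133), with -0.23 and -0.16 (adjusted p = 0.0641 and 0.168) in the separate treatments. Under UV-PAPC the nearest arrays were almost level, at 7.775 (scramble) and 7.772 (OLR1 siRNA).

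**Figure D4:**
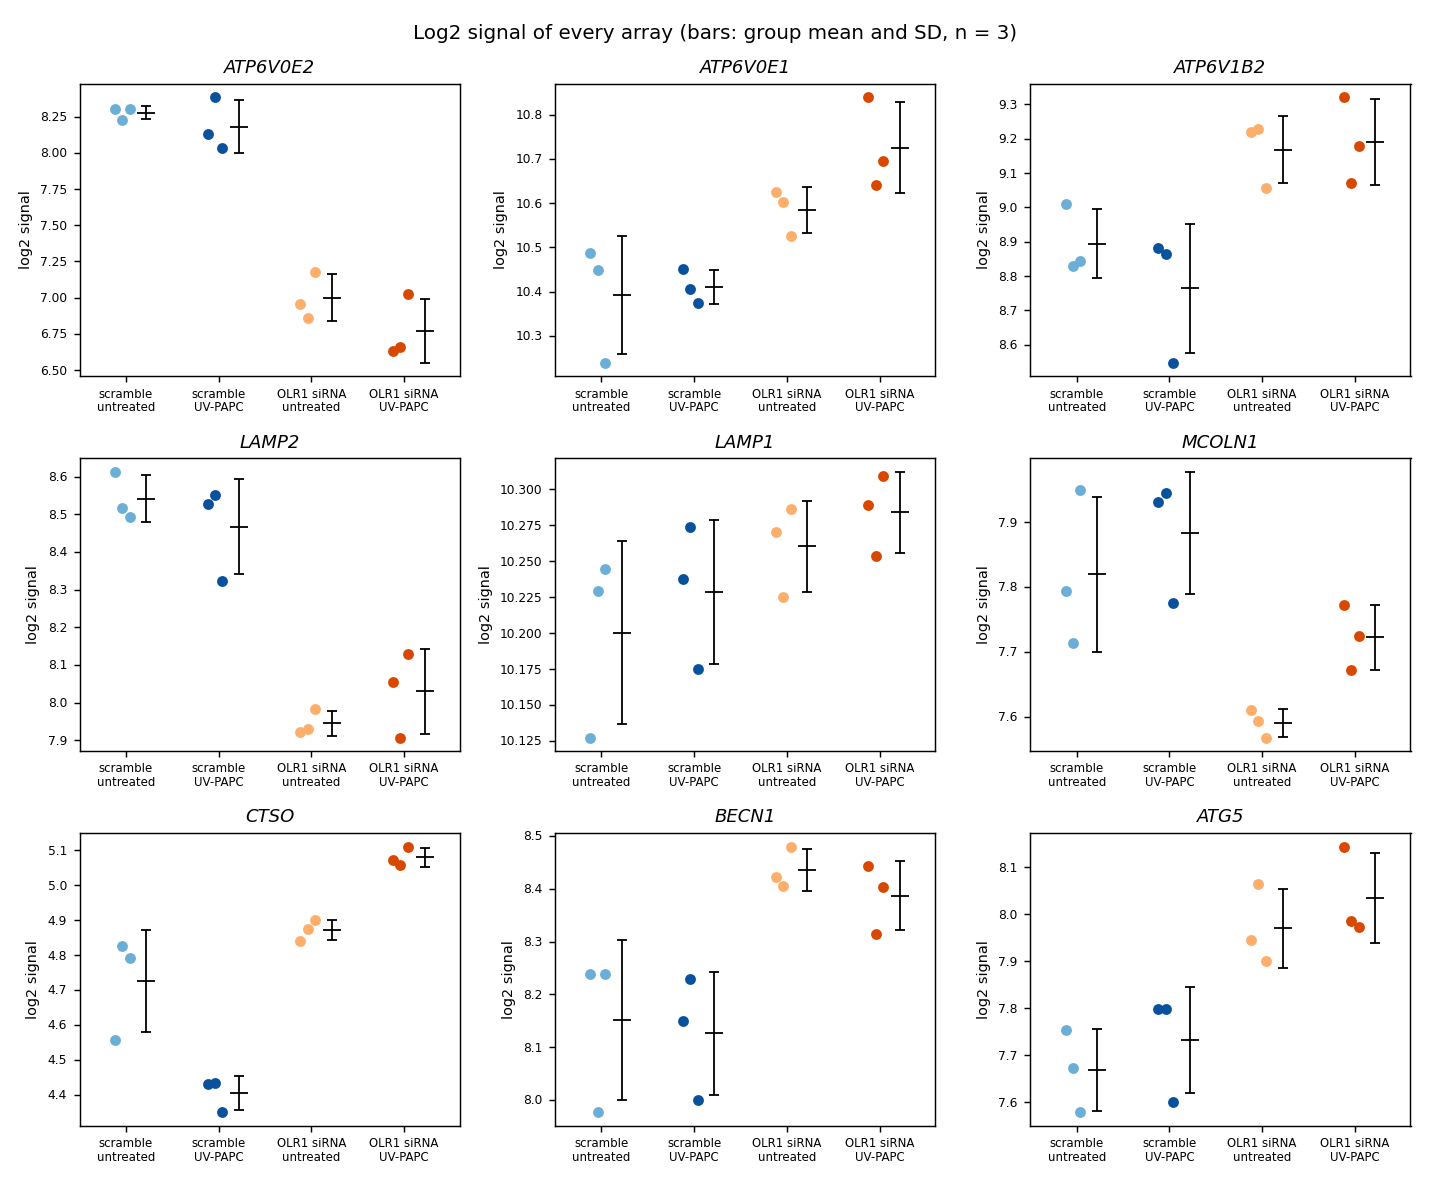
Log2 signal (y axis, a separate range in each panel) of 9 genes in every array, by group (x axis); points are single arrays and bars the group mean and SD, n = 3. ATP6V0E2, LAMP2 and MCOLN1 are lower in the OLR1 siRNA arrays, ATP6V0E1, ATP6V1B2, BECN1 and ATG5 are higher, and LAMP1 spans under 0.2 log2 units in all.

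BECN1, the scaffold of the autophagy lipid kinase, and ATG5, the partner of ATG12 in the conjugating enzyme, were higher with OLR1 siRNA in both treatments. BECN1 read 8.24, 7.98 and 8.24 (scramble, untreated), 8.15, 8.23 and 8.0 (scramble, UV-PAPC), 8.42, 8.40 and 8.48 (OLR1 siRNA, untreated) and 8.44, 8.32 and 8.40 (OLR1 siRNA, UV-PAPC). The groups of either treatment did not overlap, and BECN1 rose in untreated cells (0.28, SE 0.08, adjusted p = 0.0398), with UV-PAPC (0.26, adjusted p = 0.0497) and in the average (0.27, adjusted p = 0.00306). The call with UV-PAPC was lost without any 1 of 9 of the 12 arrays (adjusted p = 0.0529 to 0.189). After repeated quantile normalization (0.19, adjusted p = 0.0977) and in a fit of the 6 arrays alone (adjusted p = 0.0714) it did not pass either, nor with the replicate number as a block (adjusted p = 0.0579). The call in untreated cells was lost without any 1 of 6 of the 12 arrays (adjusted p = 0.052 to 0.199). In a fit of the 6 arrays alone (adjusted p = 0.0556) it did not pass either. The average call was kept in all 20 alternatives. ATG5 read 7.75, 7.67 and 7.58 (scramble, untreated), 7.80, 7.80 and 7.60 (scramble, UV-PAPC), 7.95, 8.06 and 7.90 (OLR1 siRNA, untreated) and 8.14, 7.99 and 7.97 (OLR1 siRNA, UV-PAPC). ATG5 also did not overlap and rose by 0.30 and 0.30 (SE 0.08 in both, adjusted p = 0.0241 and 0.021), and by 0.30 in the average (adjusted p = 0.0011). The untreated call was lost without array scramble untreated 2 or 3 or OLR1 siRNA untreated 1 or 2 (adjusted p = 0.0558 to 0.114). The call with UV-PAPC was lost without array scramble UV-PAPC 3 or OLR1 siRNA UV-PAPC 1 (adjusted p = 0.0953 to 0.103). ATG7 read 6.79, 6.63 and 6.96 (scramble, untreated), 6.82, 6.86 and 6.60 (scramble, UV-PAPC), 6.93, 6.95 and 6.95 (OLR1 siRNA, untreated) and 7.18, 6.93 and 7.08 (OLR1 siRNA, UV-PAPC). ATG7, the activating enzyme of the cascade, rose with UV-PAPC (0.31, adjusted p = 0.0411) and in the average (0.23, SE 0.07, adjusted p = 0.0184); in untreated cells its groups overlapped (0.15, adjusted p = 0.352). The call with UV-PAPC was lost without any 1 of 6 of the 12 arrays (adjusted p = 0.0524 to 0.175). In a fit of the 6 arrays alone (adjusted p = 0.0642) it did not pass either. The average call was lost without array scramble untreated 2 or scramble UV-PAPC 3 or OLR1 siRNA UV-PAPC 1 (adjusted p = 0.0501 to 0.0545). OPTN read 7.79, 7.91 and 7.88 (scramble, untreated), 7.80, 7.81 and 7.89 (scramble, UV-PAPC), 7.57, 7.60 and 7.75 (OLR1 siRNA, untreated) and 7.61, 7.65 and 7.67 (OLR1 siRNA, UV-PAPC). OPTN, a receptor for ubiquitin-tagged cargo, was lower without overlap in both treatments and fell by 0.21 in the average (SE 0.05, adjusted p = 0.0061), with adjusted p = 0.0523 untreated and 0.0847 with UV-PAPC. NBR1 (0.17), TAX1BP1 (0.13) and CALCOCO2 (0.02), the 3 ATG8 family genes (-0.14 to 0.09), TFEB (-0.05) and TFE3 (0.14) did not pass in the average. With 4 arrays left out together, 1 per group, the average calls of ATG7, MCOLN1, CTSZ and ATP6V1E1 and the calls with UV-PAPC of BECN1, ATG5, ATG7, CTSH, GUSB, ATP6V0E1 and ATP6V1B2 did not pass (adjusted p = 0.0882 to 0.263 and 0.0636 to 0.183), nor those of BECN1 and ATG5 in untreated cells (0.0972 to 0.104).

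Among the hydrolases, CTSH and GUSB were higher and CTSZ lower with OLR1 siRNA, each without overlap in both treatments. CTSH read 9.63, 9.67 and 9.68 (scramble, untreated), 9.49, 9.56 and 9.41 (scramble, UV-PAPC), 9.91, 9.92 and 9.75 (OLR1 siRNA, untreated) and 9.76, 9.65 and 9.84 (OLR1 siRNA, UV-PAPC). CTSH, an aminopeptidase, rose with UV-PAPC (0.26, SE 0.07, adjusted p = 0.0278) and in the average (0.23, adjusted p = 0.00404). The call with UV-PAPC was lost without array scramble UV-PAPC 1 or 3 or OLR1 siRNA UV-PAPC 1 or 3 (adjusted p = 0.0658 to 0.106). After repeated quantile normalization (0.16, adjusted p = 0.111) and in a fit of the 6 arrays alone (adjusted p = 0.0639) it did not pass either. GUSB read 7.93, 7.80 and 7.89 (scramble, untreated), 7.73, 7.83 and 7.73 (scramble, UV-PAPC), 8.19, 8.01 and 8.02 (OLR1 siRNA, untreated) and 8.01, 7.97 and 8.02 (OLR1 siRNA, UV-PAPC). GUSB rose with UV-PAPC (0.24, SE 0.07, adjusted p = 0.0365) and in the average (0.22, adjusted p = 0.00448). The call with UV-PAPC was lost without array scramble UV-PAPC 1 or 3 or OLR1 siRNA UV-PAPC 1, 2 or 3 (adjusted p = 0.0539 to 0.109). After repeated quantile normalization (0.19, adjusted p = 0.0569) and in a fit of the 6 arrays alone (adjusted p = 0.0638) it did not pass either. CTSZ read 10.30, 10.35 and 10.33 (scramble, untreated), 10.33, 10.34 and 10.29 (scramble, UV-PAPC), 10.22, 10.17 and 10.16 (OLR1 siRNA, untreated) and 10.17, 10.16 and 10.20 (OLR1 siRNA, UV-PAPC). CTSZ, a carboxypeptidase, fell in the average (-0.14, SE 0.04, adjusted p = 0.0202), a call lost without array scramble untreated 2 (adjusted p = 0.0514) and with arrays centred on their medians (adjusted p = 0.0504). The other enzymes of the list, CTSA, CTSB, CTSC, CTSD, CTSL, GLA, HEXA and NEU1, ranged from -0.10 to 0.11 and did not pass. CD68, another glycoprotein of the lysosomal membrane and also a macrophage marker, rose by 0.42 in the average (adjusted p = 5.71e-05). CD68 was the 1 of 8 leukocyte markers that passed. The mean log2 signal of the 8 was 4.76 to 4.84 in scramble untreated and 4.83 to 4.93 in OLR1 siRNA untreated arrays, with 4.79 to 4.83 and 4.80 to 4.89 under UV-PAPC. The leukocyte gene PTPRC stayed between percentiles 2.21 and 6.68. The endothelial gene CDH5 (0.57) and the keratinocyte gene DSG3 (0.34) rose as well, each the 1 of 5 measured markers of its list that did. Of the 8 sebocyte and epithelial markers, KRT7 (-0.15) and SCD (-0.16) fell and the others did not pass. The melanocyte gene TYR fell (-0.23), the 1 of 4 measured markers of its list that did, at a low signal (percentiles 3.25 to 12.8). The part of these cell types in the changes was not tested.

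The promoters of MCOLN1, LAMP1 and ATP6V0E2 are shown because MCOLN1 holds the full CLEAR motif, LAMP1 the most E-boxes of the list, and ATP6V0E2 is the gene that fell most. The window and capitals are those given above; MCOLN1 is at chr19:7522424-7522653 (+), LAMP1 at chr13:113297039-113297268 (+) and ATP6V0E2 at chr7:149872768-149872997 (+).
MCOLN1: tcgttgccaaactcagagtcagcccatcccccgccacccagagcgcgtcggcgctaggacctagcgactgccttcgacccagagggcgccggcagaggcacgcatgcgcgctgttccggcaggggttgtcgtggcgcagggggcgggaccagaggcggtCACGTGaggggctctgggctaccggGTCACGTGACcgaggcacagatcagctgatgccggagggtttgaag
LAMP1: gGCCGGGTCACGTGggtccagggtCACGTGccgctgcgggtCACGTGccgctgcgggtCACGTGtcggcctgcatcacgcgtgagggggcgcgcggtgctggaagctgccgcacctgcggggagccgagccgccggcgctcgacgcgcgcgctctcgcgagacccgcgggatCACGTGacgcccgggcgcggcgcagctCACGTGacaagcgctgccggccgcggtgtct
ATP6V0E2: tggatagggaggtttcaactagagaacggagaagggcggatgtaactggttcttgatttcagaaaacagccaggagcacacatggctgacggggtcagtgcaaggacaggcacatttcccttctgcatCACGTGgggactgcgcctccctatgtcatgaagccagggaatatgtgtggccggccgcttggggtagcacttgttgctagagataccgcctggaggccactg
MCOLN1 held the full CLEAR letters, which occurred in 0.381% of all promoters, and a second CACGTG. LAMP1 held 6 copies of CACGTG, the first overlapping an antioxidant response core, and ATP6V0E2 held 1. Of the 35 genes of the list with a promoter in the table, 9 (25.7%) held CACGTG in 300 bases, against 7.43% of all 27305 promoters: ATG14, ATG3, LAMP1, MCOLN1, CTSA, CTSD, NEU1, ATP6V0D1 and ATP6V0E2. The average UV-PAPC changes of these 9 genes ranged from -0.16 to 0.15. In the average OLR1 siRNA effect MCOLN1 and ATP6V0E2 fell, where 10.2% of all genes fell. ATG14, ATG3, LAMP1, CTSA, CTSD, NEU1 and ATP6V0D1 did not pass there. A link of the letters to these changes was not tested.

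The difference of the UV-PAPC responses asks whether OLR1 siRNA altered the response to the lipid. No member passed: limma called 0 of 45 genes, and 0 of all 18417, at an adjusted p under 0.05, with 2 members and 1004 genes at an unadjusted p under 0.05. Of the 45 differences 33 were positive (a higher response with OLR1 siRNA, 73.3%), beside 51.6% of all genes and 64.6% of the high-signal genes. Their median was 0.0685, against 0.00537 over all genes and 0.0402 over the high-signal genes. For GABARAPL1 the difference was 0.15 (95% interval -0.12 to 0.43) and for GLA 0.23 (-0.02 to 0.49), intervals that include 0 and reach further above it than below. The genes at an unadjusted p under 0.05 were NEU1 (0.22, adjusted p = 0.904) and CTSO, a cysteine protease with low signal, between percentiles 18.7 and 30.9 of each array. The log2 signal of CTSO was 4.56, 4.83 and 4.79 in untreated cells with scramble siRNA and 4.43, 4.43 and 4.35 with UV-PAPC, and 4.84, 4.87 and 4.90 and 5.07, 5.06 and 5.11 in the same order with OLR1 siRNA. With scramble siRNA every treated array was below every untreated array, with OLR1 siRNA every treated array was above, and all 3 arrays given both stood above the other 9. CTSO fell by 0.32 with scramble siRNA (SE 0.07, adjusted p = 0.0122), was at 0.21 with OLR1 siRNA (adjusted p = 0.115) and rose 1.6-fold with OLR1 siRNA under UV-PAPC (0.68, SE 0.07, adjusted p = 3.27e-05). Its difference of responses was 0.53 (95% interval 0.31 to 0.75), with an unadjusted p = 0.000113 and an adjusted p = 0.52, so it failed the correction over all genes. The fall with scramble siRNA was lost without array scramble untreated 2 or 3 (adjusted p = 0.0616 to 0.0672).

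Setting both responses side by side over the list, 31 of 45 genes had the same sign under both siRNAs, and Pearson's r across the genes was 0.877 (Spearman's rho 0.636), falling to 0.615 over the 43 genes without GABARAPL1 and GLA. Over all genes r was 0.707, and over the high-signal genes 0.848. The share of like sign was 68.9% in the list, 64.1% of all genes and 73.6% of the high-signal genes. These points are genes read on the same arrays and normalised together, so they are not independent replicates. Treated and untreated arrays did not overlap for 6 genes that were higher and 5 lower with scramble siRNA (13.3% and 11.1%, against 10.1% and 14.0% of all genes), and for 15 higher and 1 lower with OLR1 siRNA (33.3% and 2.22%, against 10.9% and 12.8%). For OLR1 against scramble siRNA the counts were 11 higher and 8 lower in untreated cells (24.4% and 17.8%, against 15.0% and 13.7%), and 14 and 7 with UV-PAPC (31.1% and 15.6%, against 16.6% and 14.1%). No share of non-overlapping arrays is given for the high-signal genes, here or above. These counts are therefore not read as a trait of the list. The comparisons of siRNAs and of treatments share arrays, so their values are not independent of each other.

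Further genes of the same systems, from 5 lists with 134 of 145 symbols measured, gave 17 rises and 6 falls in the average UV-PAPC effect (12.7% and 4.48%, against 5.95% and 8.03% of all genes and 8.89% and 13.3% of the high-signal genes). The shares of the single lists below are read against the same background. In the other autophagy machinery 6 rose and 1 fell of 38 (15.8% and 2.63%). The cargo receptor gene SQSTM1 rose most (0.66). Its log2 signal was 10.50, 10.58 and 10.59 untreated and 11.17, 11.16 and 11.05 treated with scramble siRNA, and 10.40, 10.35 and 10.47 and 11.20, 11.06 and 11.20 with OLR1 siRNA, and the groups did not overlap. The protease ATG4A (0.35), which trims and recycles ATG8 proteins, its relative ATG4D (0.18), the omegasome protein ZFYVE1 (0.24), the lipid kinase PIK3C3 (0.22) and the fusion adaptor PLEKHM1 (0.22) also rose, and the kinase ULK2 fell (-0.17). Of other lysosomal genes, 3 rose and 2 fell of 43 (6.98% and 4.65%): the cholesterol exporter NPC1 (0.25), the protease CTSF (0.22) and the peptidase TPP1 (0.19) were higher, and the membrane transporter MFSD8 (-0.28) and the mannose-6-phosphate tagging enzyme GNPTAB (-0.22) lower. Among other pump subunits 1 rose and 1 fell of 13 (7.69% and 7.69%), ATP6V1G1 (0.21) and ATP6V1B1 (-0.22). In mTORC1 and AMPK control 5 rose and 2 fell of 32 (15.6% and 6.25%). The stress-induced mTORC1 inhibitors SESN2 (0.35) and DDIT4 (0.31), the mTORC1 subunit AKT1S1 (0.18) and the AMPK subunits PRKAB1 (0.18) and PRKAB2 (0.25) rose, and the AMPK catalytic subunit PRKAA1 (-0.17) and the TFEB relative MITF (-0.15) fell. SESN2 and DDIT4 rose with scramble siRNA (0.52 and 0.47) and were at 0.19 and 0.15 with OLR1 siRNA, where they did not pass. The differences of -0.33 and -0.32 did not pass (limma adjusted p = 0.904 for each). Of 8 galectins and lysosome damage genes TRIM16 (0.19) and the ATPase VCP (0.18) rose and 0 fell, with 1 negative change at an unadjusted limma p under 0.05.

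With OLR1 siRNA the same lists gave 26 rises and 8 falls in the average effect (19.4% and 5.97%). The background was 12.9% and 10.2% of all genes and 22.6% and 13% of the high-signal genes, so the share of rises was near that of the high-signal genes. Of the other autophagy machinery 8 rose and 0 fell of 38 (21.1% and 0%), led by the protease ATG4C (0.54), PIK3R4 (0.49), which is the regulatory partner of PIK3C3, the kinase TBK1 (0.42), which phosphorylates OPTN, and PLEKHM1 (0.32). NRBF2 (0.26), EPG5 (0.21), ATG13 (0.18) and PIK3C3 (0.15) also rose. Of other lysosomal genes 11 rose and 2 fell of 43 (25.6% and 4.65%). The sulfatase IDS fell (-0.38), from 9.25, 9.23 and 9.16 with scramble to 8.82, 8.73 and 8.81 with OLR1 siRNA in untreated cells and from 9.21, 9.20 and 9.03 to 8.87, 8.75 and 8.82 with UV-PAPC, without overlap. The cholesterol carriers NPC2 (0.30) and NPC1 (0.27), the protease CTSS (0.26), GNPTAB (0.26), the protease LGMN (0.22) and the membrane protein LAPTM4A (0.22) rose, and the channel MCOLN2 fell (-0.26). The stalk subunit ATP6V1G1 fell (-0.21) and the remaining 12 other pump subunits did not pass. In mTORC1 and AMPK control 7 rose and 5 fell of 32 (21.9% and 15.6%): PRKAA1 fell most (-0.44), DDIT4 (-0.30) and the amino acid sensing GTPase RRAGC (-0.27) fell, and FNIP2 (0.39), the lysosomal scaffold LAMTOR3 (0.35), MITF (0.35), the mTORC1 activator RHEB (0.31) and SESN1 (0.31) rose. Of the 8 galectins and lysosome damage genes 0 passed in limma, and 1 had an unadjusted p under 0.05.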

How the data were processed

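Total RNA of the 12 samples (100 ng each) was read on GeneChip whole-transcript arrays. Per the submitters' processing notes, the deposited values are log2 RMA signals from Affymetrix Expression Console 1.3.1.187; RMA corrects background, quantile normalises and summarises probe sets, so levels of different probe sets are not comparable. Of 33297 entries, 19460 name 1 gene, 1754 several and 12083 none, by the platform annotation (which can be old); the highest-mean probe set was kept for each of 18417 genes. limma 3.58.1 in R 4.3.3 fitted 4 group means, with 8 residual degrees of freedom, and 7 contrasts, with Benjamini-Hochberg adjustment over all genes of each contrast. The fit was tested on simulated data. Every member that passed is given with every array's value, and of the 5 wider lists at most the 8 largest called changes each. The members and lists were chosen with earlier results of these data known. Promoters are RefSeq's, build GRCh38.p14, found for 35 of the 45 genes. The alternatives were a trended robust variance, array weights, genes above the median signal, mean probe sets, median centring and repeated quantile normalization. Further ones were only the 6 arrays compared, the replicate number as a block, each array left out, and 4 arrays left out together. These 4 were scramble untreated 1, scramble UV-PAPC 2, OLR1 siRNA untreated 2 and OLR1 siRNA UV-PAPC 1. Each had the highest score of its group on the first component of the arrays' deviations (0.20, 0.33, 0.22 and 0.41). The sign of a component is arbitrary. In each group an array that was kept had a larger score of opposite sign (-0.27, -0.50, -0.30 and -0.43 in the same order). Those arrays were not left out together, so the 4 are not shown to be outliers. What the shared pattern of the first component reflects was not tested. Whether replicate numbers pair the samples cannot be told from the array correlations. Of 18 same-number pairs, 6 had deviations correlated over 0.1 (range -0.22 to 0.26), and pairs of different number ranged from -0.26 to 0.27. The deviations within a group cancel out by construction, so such correlations cannot exclude pairing. The fit treated the samples as unpaired.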

Additional observations from a re-analysis of the deposited data

Results flagged for a closer look

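The response of CTSO to UV-PAPC went opposite ways under the siRNAs: the 3 treated arrays lay below the 3 untreated ones with scramble siRNA and above them with OLR1 siRNA. The difference of the responses was 0.53 on the log2 scale (OLR1 siRNA minus scramble), and by limma it did not pass the Benjamini-Hochberg adjustment over all genes (adjusted p = 0.52). The probe set had a low signal on every array.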

How the results depend on the processing

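Of 1247 values of single genes recomputed under the alternatives, 1114 kept their direction and their side of the threshold, 119 lost a call, 14 gained one and 0 changed direction. The 1247 include genes that had no call to lose, among them all 119 values for the difference of responses. The trended variance, the replicate block and the fit of 6 arrays leave a fold change as it was by construction. A direction could not change in those settings. The 2 UV-PAPC calls of GABARAPL1 and of GLA, and both OLR1 siRNA calls of ATP6V0E2 and of LAMP2, were kept in all 21 alternatives. Counts of genes of the list moved as follows. For UV-PAPC with scramble siRNA, 4 rose with array weights and 4 after repeated quantile normalization, and 1 fell among genes above the median signal, 1 with the replicate block and 1 with 4 arrays left out (627 of all genes called). For UV-PAPC with OLR1 siRNA, 2 rose when only the 6 arrays were fitted and 2 with 4 arrays left out (452 of all genes). In the average UV-PAPC effect 2 fell with the trended robust variance and 2 among genes above the median, and 2 rose with 4 arrays left out (1455 of all genes). For OLR1 siRNA in untreated cells, 5 rose and 5 fell with the trended robust variance, 4 rose with array weights, 5 rose and 4 fell among genes above the median, 4 fell after quantile normalization, 1 rose in the 6 arrays alone, and 0 rose with 4 arrays left out (739 of all genes). With UV-PAPC, 4 rose and 4 fell after quantile normalization, 4 rose in the 6 arrays alone and 1 with 4 arrays left out (863 of all genes); in the average OLR1 siRNA effect 3 fell with those left out (2459 of all genes). With 4 arrays left out, 8 arrays remain and fewer genes pass; the cause of the other shifts was not tested.

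Leaving out 1 array at a time gave, for UV-PAPC with scramble siRNA, 0 to 2 falls and 868 to 1340 of all genes, and with OLR1 siRNA 2 to 6 rises. The average UV-PAPC effect gave 1 to 2 falls. OLR1 siRNA gave 0 to 3 rises, 2 to 4 falls and 1101 to 2055 of all genes in untreated cells, and 2 to 8 rises and 1267 to 2254 of all genes with UV-PAPC. The difference of responses gave 0 calls in every alternative. With the replicate number as a block the average effects kept 7 rises and 1 fall for UV-PAPC and 9 rises and 5 falls for OLR1 siRNA. The block lost the calls of ATG16L1 (UV-PAPC with scramble siRNA) and BECN1 (OLR1 siRNA with UV-PAPC), at limma adjusted p = 0.0546 and 0.0579. Signal over background was not available for these values, and 3 arrays per group limit the precision.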
